A study of Mus musculus with 56 samples.

Results

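Of 43629 genes in the deposited count tables, 9 are the immediate early genes Fos, Fosb, Junb, Egr1, Npas4, Nr4a1, Arc, Ier2 and Dusp1. They were taken by name as classical immediate early genes, with no threshold on their values. All 9 passed the filter on low counts and were among the 18838 genes tested. Immediate early genes are transcribed within minutes of a stimulus without new protein synthesis, when calcium and kinase signals act on factors such as CREB and SRF that already sit on their promoters. Most encode transcription factors, and in neurons their transcripts are used as a sign of recent synaptic activity. A ribosome-bound transcript of such a gene is read as one under translation when the tissue was collected. Purified RNA can also hold RNA of other cells, and the effect of killing and dissection on these levels was not measured.

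The study used mice in which the Chat bacTRAP transgene places an EGFP-tagged L10a ribosomal protein in cholinergic neurons. Translating ribosome affinity purification from spinal motor neurons (MN-TRAP) pulls the tagged ribosomes and their mRNA out of a spinal cord lysate, and the unpurified cord RNA is the input. The 3 genotypes were Chat bacTRAP with hTDP-43A315T, a mutant human TDP-43 transgene linked to amyotrophic lateral sclerosis, Chat bacTRAP with hTDP-43WT, and Chat bacTRAP alone. All 3 genotypes thus carried the Chat bacTRAP transgene, and both human TDP-43 transgenes were driven by the prion promoter, which is active beyond motor neurons. Mice were described as female and were taken at 9 weeks, before symptoms in hTDP-43A315T mice, or at 14 weeks, early in symptoms. The 56 libraries make 12 groups. MN-TRAP libraries numbered 5 and 4 for hTDP-43A315T, 3 and 5 for hTDP-43WT and 4 and 4 for Chat bacTRAP at 9 and 14 weeks, and cord libraries numbered 5 and 4, 6 and 5, and 6 and 5 in the same order. Chat is also expressed by other cholinergic neurons of the cord, so the purified RNA is not from motor neurons alone.

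Motor neuron markers stood far apart between the fractions, with a summed level of 1722 to 5994 CPM (counts in every 1000000) in MN-TRAP and 328 to 595 CPM in cord. Depth was 0.472 to 256 M counts in MN-TRAP (M, 1000000; median 19.6 M) and 17.5 to 86.7 M counts in cord (median 40.4 M). Several MN-TRAP libraries stand apart. Of the 25 MN-TRAP libraries, 4 held under 5 M counts, which were hTDP-43WT replicate 1 at 9 weeks, Chat bacTRAP replicate 3 at 9 weeks and Chat bacTRAP replicates 2 and 4 at 14 weeks. Oligodendrocyte markers (7 genes) averaged over 9 on the log2 CPM scale in 5 control libraries, namely hTDP-43WT replicate 2 at 9 weeks (9.46) and replicates 2 and 3 at 14 weeks (9.86 and 9.68), and Chat bacTRAP replicate 2 at 9 weeks (10.03) and replicate 1 at 14 weeks (10.09), against 10.32 to 11.02 in cord. The next library below, hTDP-43WT replicate 4 at 14 weeks, had 8.99. The summed oligodendrocyte level was 1395 to 21231 CPM over all MN-TRAP libraries and 18526 to 29910 CPM in cord. The pseudogene Lamr1-ps1 had reads in 9 of 9 hTDP-43A315T libraries of each fraction. It also had 1.11 to 1.69 CPM in 3 control MN-TRAP libraries, which were hTDP-43WT replicate 5 at 14 weeks, hTDP-43WT replicate 3 at 9 weeks and Chat bacTRAP replicate 4 at 9 weeks. In 2 of these 3, the counts came unusually close to those of an hTDP-43A315T library of the same age, with a chi-square per gene of 1.31 and 1.90 where the next closest of 210 pairs had 11.1. The calls that change without these libraries are named beside the results they touch.

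The start regions of 4 genes are printed because they fall on opposite sides of the main contrast below, Fos and Dusp1 being higher and Nr4a1 and Npas4 lower in MN-TRAP. Each is the 250 bases before the RefSeq start in build GRCm38.p6, read 5′ to 3′ on the strand of the gene, with capitals marking the short cAMP response element TGACG or its reverse complement CGTCA, and in Dusp1 the whole palindrome TGACGTCA.
Fos (chr12:85473640-85473889, + strand): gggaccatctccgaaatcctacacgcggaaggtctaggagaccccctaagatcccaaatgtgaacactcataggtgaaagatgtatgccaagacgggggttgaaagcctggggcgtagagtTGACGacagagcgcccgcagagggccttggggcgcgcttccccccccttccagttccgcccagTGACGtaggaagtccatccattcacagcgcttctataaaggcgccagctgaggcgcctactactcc
Dusp1 (chr17:26508473-26508722, - strand): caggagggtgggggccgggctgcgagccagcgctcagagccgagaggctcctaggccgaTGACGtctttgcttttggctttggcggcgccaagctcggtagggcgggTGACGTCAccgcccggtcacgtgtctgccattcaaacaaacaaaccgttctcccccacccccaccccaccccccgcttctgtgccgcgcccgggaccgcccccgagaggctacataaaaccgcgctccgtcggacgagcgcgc
Nr4a1 (chr15:101266596-101266845, + strand): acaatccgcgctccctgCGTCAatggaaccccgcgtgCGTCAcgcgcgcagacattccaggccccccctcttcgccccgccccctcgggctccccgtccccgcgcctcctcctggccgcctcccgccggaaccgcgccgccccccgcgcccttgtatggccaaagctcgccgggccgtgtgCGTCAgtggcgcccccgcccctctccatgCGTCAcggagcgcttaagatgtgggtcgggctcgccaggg
Npas4 (chr19:4989972-4990221, - strand): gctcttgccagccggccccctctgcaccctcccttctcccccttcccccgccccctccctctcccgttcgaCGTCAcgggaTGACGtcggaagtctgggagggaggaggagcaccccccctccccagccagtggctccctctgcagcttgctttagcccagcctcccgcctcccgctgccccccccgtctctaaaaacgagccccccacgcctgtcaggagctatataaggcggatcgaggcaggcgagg
This short element was searched on both strands, and it is contained in the longer core TGACGT and in TGACGTCA, so these matches overlap. It occurred in all 6 of the 9 genes that the promoter table holds (Fos, Fosb, Junb, Nr4a1, Dusp1 and Npas4), against 17.9% of 27025 mouse promoters of the same length. Dusp1 held the palindrome from 143 to 136 bases before its start, which 1.62% of all promoters contain. Fos held the core TGACGT from 66 to 61 bases before its start, Npas4 held it at 180 to 175 and 169 to 164, and 6.56% of all promoters hold TGACGT. Nr4a1 held 4 short elements, between 233 and 36 bases before its start. Genes on both sides of the contrast therefore carried the short element. A match is a description of the letters, not of binding.

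In the GENCODE annotation of GRCm38 the genes lie on 7 chromosomes. Fos spans chr12:85473890-85477273, Dusp1 chr17:26505590-26562128, Npas4 chr19:4984355-4990316 and Fosb chr7:19302696-19310051. Arc (chr15:74669083-74672570) and Nr4a1 (chr15:101254269-101274795) share a chromosome, as do Ier2 (chr8:84661331-84662852) and Junb (chr8:84974484-84978718), while Egr1 is on chromosome 18. The GENCODE spans of Dusp1, Nr4a1 and Npas4 reach upstream of the RefSeq starts used above, so their printed regions lie inside these spans.

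Levels were scaled by the joined length of all annotated exons, so that different genes can be compared. By this length Fos was highest in MN-TRAP (median 14.3 CPM per kilobase), followed by Dusp1 (11.7), with Egr1 and Arc at 3.80 and 3.19. In cord the order of these levels was different, with Arc first (13.1 CPM per kilobase), then Egr1 (11.9) and Fos (10.9), and Dusp1 at 5.84. The length was 2352 bases for Fos and 3311 for Dusp1, while their longest transcripts have 2108 and 2313. The order of close levels, as of Fos and Dusp1 in MN-TRAP or Egr1 and Fos in cord, therefore depends on the length taken. Npas4 was the lowest of the 9 in both fractions, at 0.0044 CPM per kilobase in MN-TRAP and 0.461 in cord, and Fosb was next lowest, at 0.687 and 0.572. Within groups, the MN-TRAP levels of Fos and Dusp1 varied less than those of most genes. In libraries of at least 5 M counts the SD of log2 CPM was 0.30 for Fos and 0.31 for Dusp1, against a median of 0.62 over all genes, and it was 2.87 for Npas4. In cord it was Dusp1 and Egr1 that varied least. The SD was 0.15 for Dusp1, which is at the 8.70 percentile of all tested genes, and 0.15 for Egr1, at the 9.54 percentile. For Fos the cord SD was 0.19, while Junb and Npas4 each had 0.46, against a median of 0.30 over all genes. In neither fraction were these SDs compared with those of genes of like level. Mean log2 CPM in MN-TRAP was 5.01 for Fos, 5.27 for Dusp1 and -3.96 for Npas4.

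**Figure D1:**
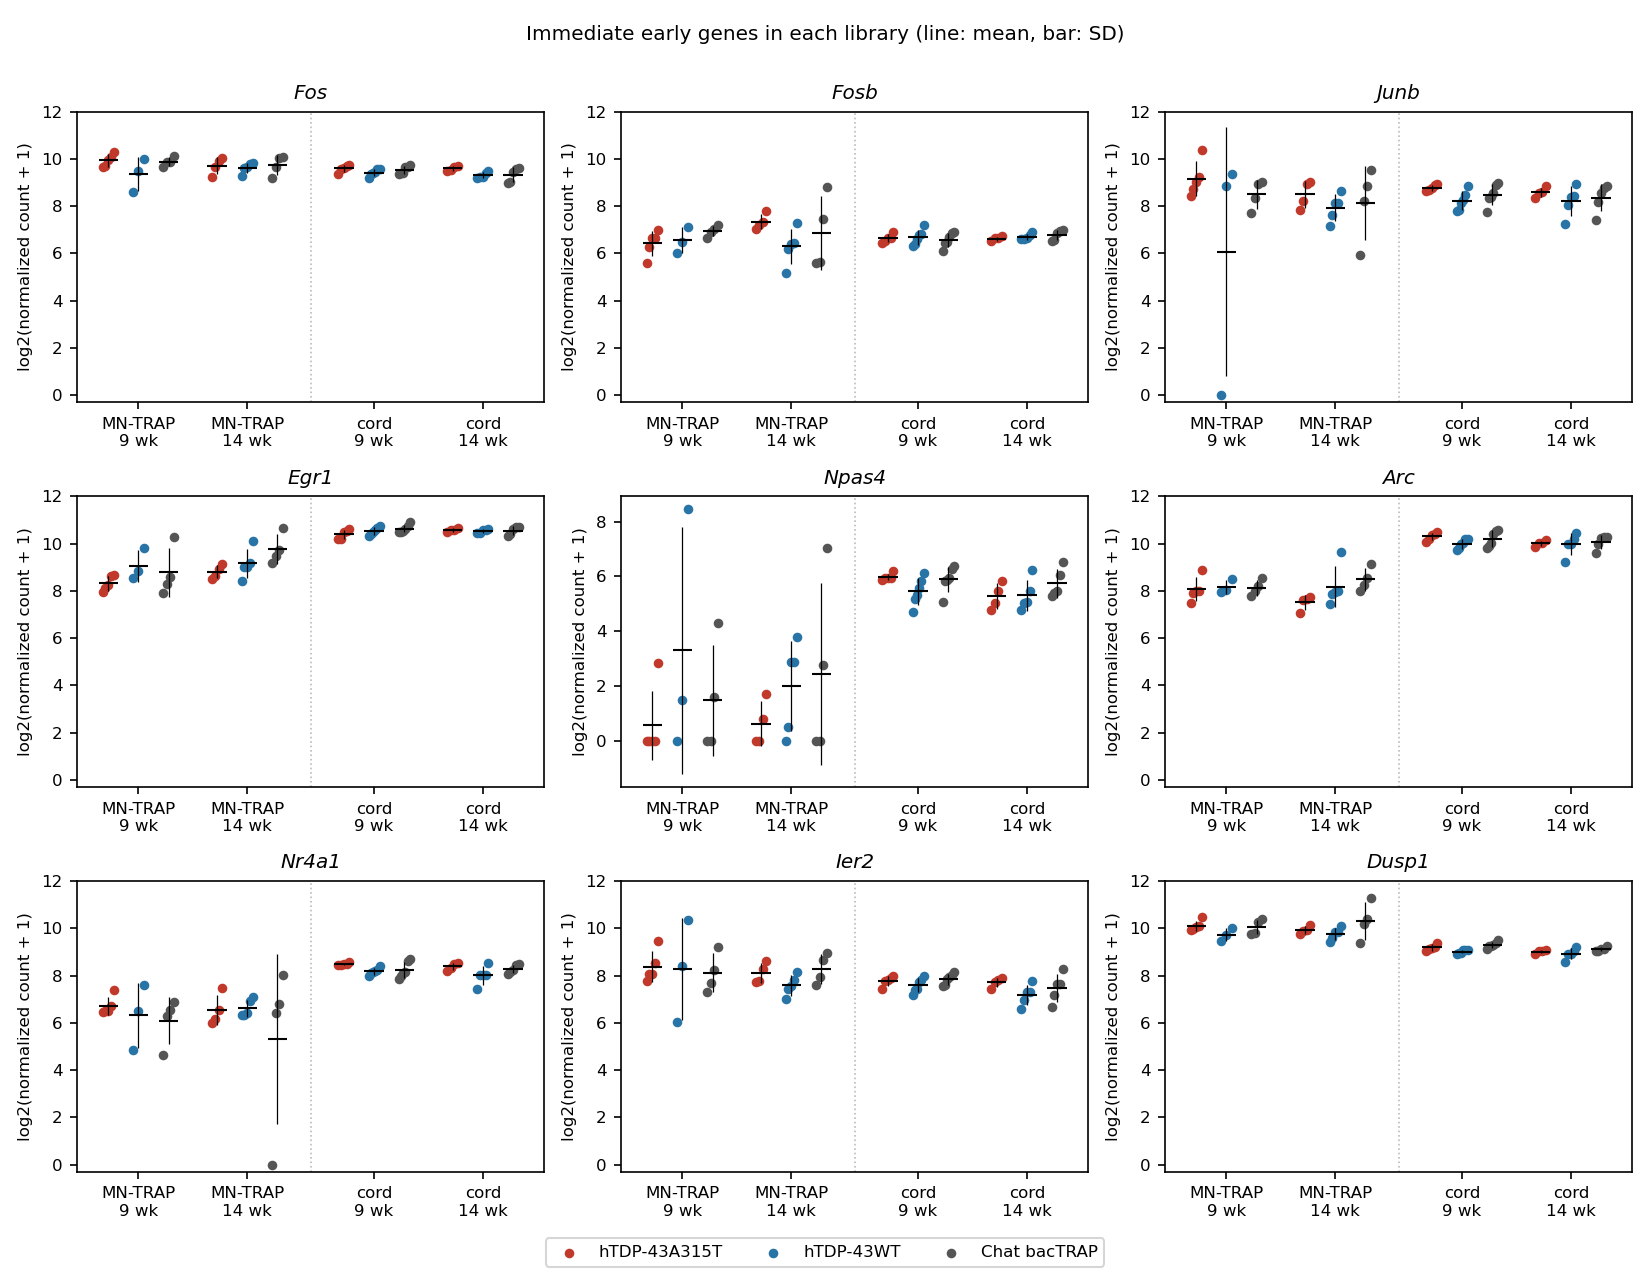
Log2 of the deposited normalized count plus 1 of each of the 9 genes in every library, by fraction and age, with genotypes by colour (line, group mean; bar, SD). Egr1, Arc and Nr4a1 have every MN-TRAP group mean below every cord group mean, and Npas4 is at 0 in 12 of 25 MN-TRAP libraries.

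The level of each transcript in MN-TRAP RNA was compared with its level in whole cord RNA within each genotype, averaging both ages. Total RNA of motor neurons was not measured, so this contrast does not give the part of a transcript that is bound to ribosomes. Egr1, Arc and Nr4a1 were at least 2-fold lower in MN-TRAP in all 3 genotypes, and Npas4 was lower in hTDP-43A315T and Chat bacTRAP mice. Dusp1 was higher by close to 2-fold in all 3, and Fos was higher by 0.36 to 0.46 on the log2 scale. Fosb and Junb did not pass the test in any genotype. With an edgeR adjusted p below 0.05 and at least a 2-fold change, 5 of 9 members were called in hTDP-43A315T mice, where 37.3% of all genes were called. In hTDP-43WT mice 4 of 9 were called against 29.6% of all genes, and in Chat bacTRAP mice 5 of 9 against 32.1%. By direction, 1 member was called higher in each genotype, Dusp1 in hTDP-43A315T and Chat bacTRAP mice and Ier2 in hTDP-43WT mice. The Ier2 call rested on 1 library, as given below. Of all genes, 13.3%, 9.80% and 9.25% were called higher in hTDP-43A315T, hTDP-43WT and Chat bacTRAP mice. In the same order 4, 3 and 4 members were called lower, against 24.1%, 19.8% and 22.8% of all genes. By the adjusted p alone, 7, 6 and 7 members passed, against 62.8%, 54.4% and 57.7% of all genes. Most genes differ in this contrast, so a call alone does not set a member apart. The median log2 change of the 9 members was 0.38, 0.02 and 0.20 in the 3 genotypes, against -0.10, -0.15 and -0.21 over all genes. In bulk RNA, fewer cells of a type and less RNA per cell cannot be told apart, and the cord values pool neurons with glia and vascular cells.

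Fos encodes c-Fos, which pairs with Jun proteins to form the AP-1 transcription factor. Its normalized counts in hTDP-43A315T mice ran from 599 through a median of 959 to 1261 in MN-TRAP, and from 650 through 782 to 851 in cord. The log2 change was 0.38 ± 0.13 (SE; adjusted p = 0.0113). In hTDP-43WT mice Fos had 387, 792 and 1031 as lowest, median and highest in MN-TRAP and 578, 665 and 755 in cord, a log2 change of 0.36 (adjusted p = 0.0216). In Chat bacTRAP mice it had 583, 939 and 1108 in MN-TRAP and 507, 697 and 847 in cord, a log2 change of 0.46 (adjusted p = 0.00247). The fractions overlapped in each genotype, and the medians lay higher in MN-TRAP. With RLE scaling in place of TMM the Fos changes were 0.25, 0.26 and 0.39, and the adjusted p was 0.0697, 0.0728 and 0.00636, so that the test was then passed in Chat bacTRAP mice alone. The adjusted p was also over 0.05 in hTDP-43A315T mice without MN-TRAP replicate 1 at 14 weeks (change 0.30, adjusted p = 0.0559) and in hTDP-43WT mice without MN-TRAP replicate 3 at 9 weeks (0.17, adjusted p = 0.334). RLE scaling moves the median of all genes by -0.129, -0.096 and -0.082 in these 3 comparisons.

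Fosb and Junb, further AP-1 subunits, gave log2 changes between 0.02 and 0.50 with adjusted p of 0.0985 to 0.959. Fosb had 46.9 to 218 normalized counts in hTDP-43A315T MN-TRAP and 85.6 to 118 in hTDP-43A315T cord. Its change in hTDP-43WT mice, 0.02, was -0.09 with RLE scaling. Junb spread widely in MN-TRAP, at 230 to 1314 in hTDP-43A315T mice against 327 to 482 in their cord, and was at 0 in the shallowest MN-TRAP library.

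Egr1 encodes a zinc-finger transcription factor induced through SRF. In hTDP-43A315T mice it had 249, 390 and 569 normalized counts (lowest, median, highest) in MN-TRAP and 1159, 1460 and 1628 in cord, with no overlap, and the log2 change was -1.77 ± 0.20 (adjusted p = 1.22e-10). In hTDP-43WT mice it had 345, 515 and 1116 in MN-TRAP and 1286, 1505 and 1723 in cord, again with no overlap, and the change was -1.18 (adjusted p = 6.86e-06). In Chat bacTRAP mice it had 241, 646 and 1603 in MN-TRAP and 1263, 1570 and 1906 in cord, and the change was -1.03 (adjusted p = 2.55e-05). The Chat bacTRAP MN-TRAP library at 1603 held under 5 M counts, and the next highest, at 1246, was one of those with a high oligodendrocyte level. That Chat bacTRAP call sat at the 2-fold limit: leaving out 1 library at a time gave -1.43 to -0.92, and it was under 2-fold without Chat bacTRAP MN-TRAP replicate 1, 3 or 4 at 9 weeks, MN-TRAP replicate 3 or 4 at 14 weeks, or cord replicate 5 at 9 weeks.

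Nr4a1, an orphan nuclear receptor, had 63.3, 89.1 and 175 normalized counts in hTDP-43A315T MN-TRAP and 294, 354 and 382 in hTDP-43A315T cord. The log2 change was -1.61 in hTDP-43A315T, -1.66 in hTDP-43WT and -1.49 in Chat bacTRAP mice, and the adjusted p was at most 5.68e-06. Arc, whose product acts at the synapse and controls AMPA receptor uptake, was the most reduced of the well-covered members. It had 131, 213 and 475 normalized counts in hTDP-43A315T MN-TRAP and 928, 1123 and 1419 in hTDP-43A315T cord, and its log2 change was -2.20 ± 0.20 in hTDP-43A315T, -1.61 ± 0.22 in hTDP-43WT and -1.75 ± 0.21 in Chat bacTRAP mice (adjusted p at most 1.61e-08). Arc, Nr4a1 and Egr1 kept a negative change when any single library was left out.

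Dusp1 encodes a nuclear phosphatase that inactivates MAP kinases, the enzymes that induce immediate early genes. It had 864, 1013 and 1434 normalized counts in hTDP-43A315T MN-TRAP and 485, 534 and 672 in hTDP-43A315T cord, with no overlap, and a log2 change of 1.05 ± 0.13 (adjusted p = 1.83e-09). In hTDP-43WT mice it had 684, 872 and 1101 in MN-TRAP and 379, 495 and 589 in cord, also with no overlap, and the change was 0.89 (adjusted p = 2.49e-07), just under the 2-fold limit. In Chat bacTRAP mice it had 662, 1193 and 2514 in MN-TRAP and 525, 600 and 717 in cord, and the change was 1.11 (adjusted p = 4.61e-10). Dusp1 passed the adjusted p in all 3 genotypes under every alternative tried, and whether it passed 2-fold depended on the setting. It was 0.93 in hTDP-43A315T mice with RLE scaling and 0.97 without their MN-TRAP replicate 3 at 9 weeks, and in Chat bacTRAP mice it was 0.88 without the libraries under 5 M counts and 0.92 without the library at 2514 alone.

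Ier2, a small nuclear protein gene, gave log2 changes of 0.73 in hTDP-43A315T, 1.19 in hTDP-43WT and 0.63 in Chat bacTRAP mice (adjusted p of 0.0132, 0.000113 and 0.0323). The hTDP-43WT value rested on replicate 2 at 9 weeks, which had 1321 normalized counts against 64.5 to 342 in the other 7 MN-TRAP libraries of that genotype, and it was 0.54 (adjusted p = 0.0870) without it. In the other genotypes the adjusted p of Ier2 reached 0.0780 (hTDP-43A315T) and 0.119 (Chat bacTRAP) when single libraries were left out, the most with MN-TRAP replicate 3 at 9 weeks removed in each. Counting members whose 2 fractions did not overlap on the TMM scale, there were 5 in hTDP-43A315T mice (Egr1, Npas4, Arc and Nr4a1 lower, Dusp1 higher) where 34.9% of all genes did not overlap. There were 3 in hTDP-43WT mice (Egr1, Nr4a1 and Dusp1) against 10.9% of genes, and 1 in Chat bacTRAP mice (Arc) against 13.7%.

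**Figure D2:**
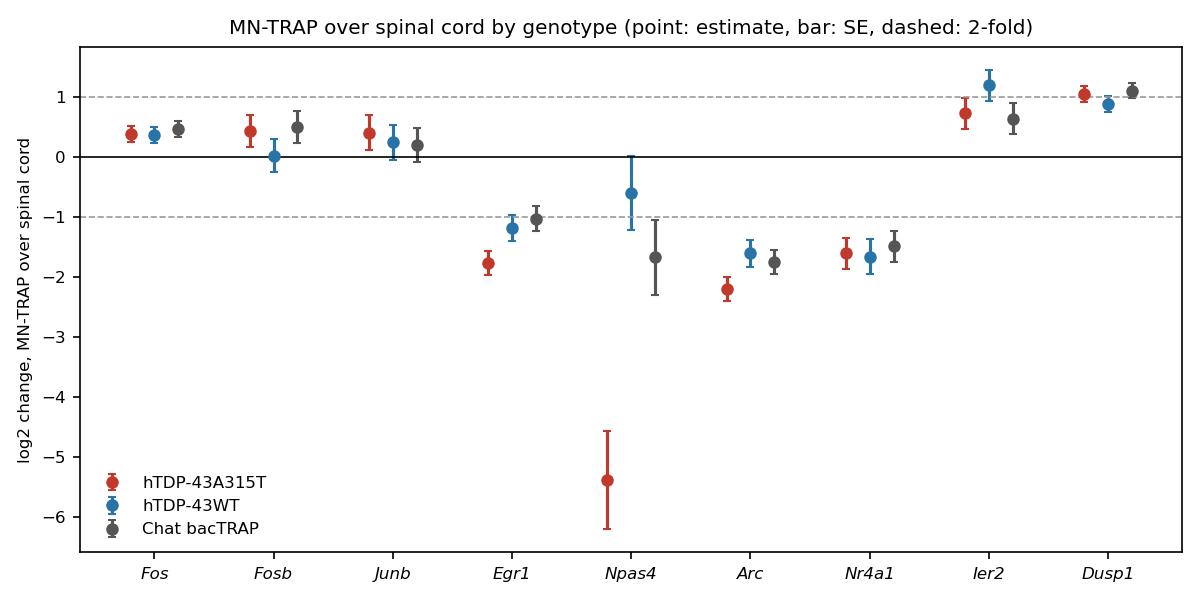
Log2 change of MN-TRAP over spinal cord for each gene (point, edgeR estimate; bar, SE; dashed lines, 2-fold) in the 3 genotypes. Egr1, Arc and Nr4a1 lie below the lower line in each genotype, Dusp1 lies near the upper line, and Npas4 has estimates from -5.39 to -0.61.

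Npas4 is a neuron-specific bHLH-PAS factor that answers to calcium entry and is known for shaping inhibitory synapses. In cord it had 25.2 to 90.4 normalized counts and was at 0 in no library. In MN-TRAP it was at 0 in 6 of 9 hTDP-43A315T libraries, 2 of 8 hTDP-43WT libraries and 4 of 8 Chat bacTRAP libraries, and the raw counts in all came to 10, 274 and 158. The log2 change over cord was -5.39 ± 0.82 in hTDP-43A315T (adjusted p = 1.33e-07), -0.61 ± 0.62 in hTDP-43WT (adjusted p = 0.413) and -1.68 ± 0.62 in Chat bacTRAP mice (adjusted p = 0.0185). The control libraries that held most of its reads had a high oligodendrocyte level. They were hTDP-43WT replicate 2 at 9 weeks with 251 counts (346 normalized), Chat bacTRAP replicate 1 at 14 weeks with 117 (128 normalized) and Chat bacTRAP replicate 2 at 9 weeks with 26 (18.8 normalized). The other 2 libraries with a high oligodendrocyte level had 4 counts and 0. Without these 5 libraries Npas4 was lower in MN-TRAP in every genotype, with log2 changes of -5.42 in hTDP-43A315T, -3.77 in hTDP-43WT and -5.20 in Chat bacTRAP mice (adjusted p at most 5.01e-05). This removal was chosen after seeing the data. It takes out the control libraries with most Npas4 reads, so it lowers the control values by itself and is no separate test. The hTDP-43WT change was -3.76 (adjusted p = 0.00176) without replicate 2 at 9 weeks alone, and the Chat bacTRAP change was -1.44 (adjusted p = 0.0572) without MN-TRAP replicate 4 at 9 weeks.

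**Figure D3:**
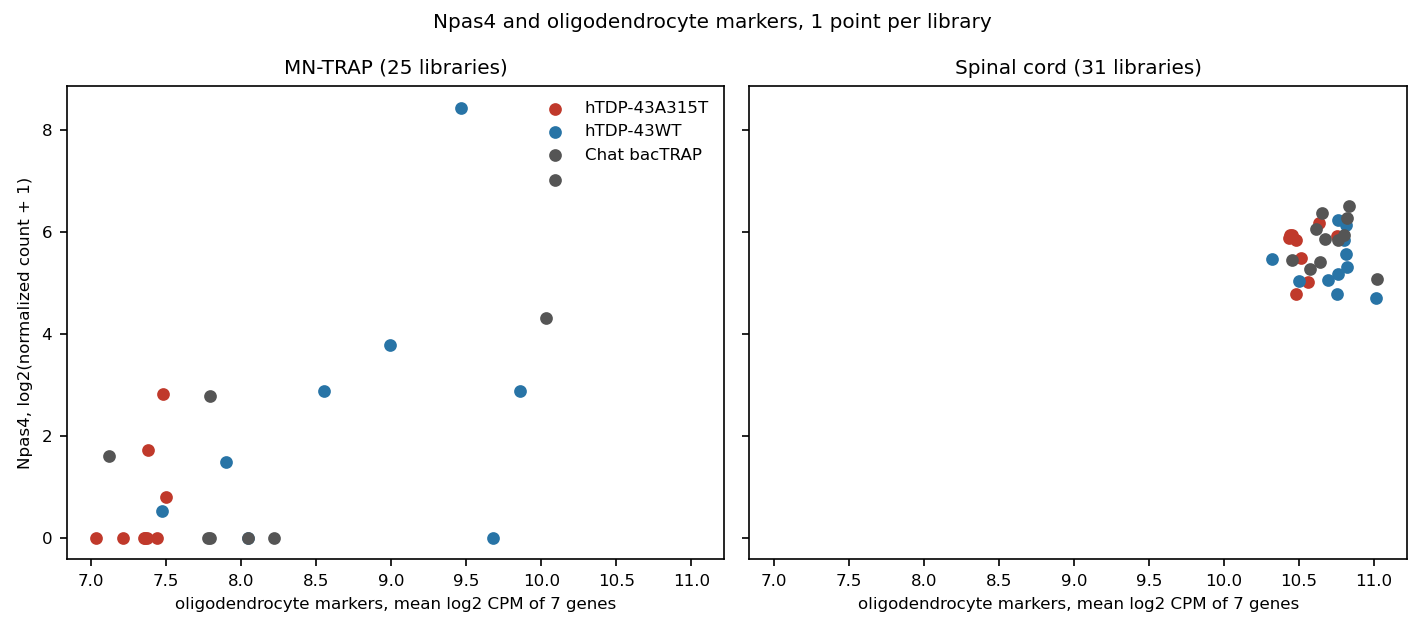
Log2 of the normalized Npas4 count plus 1 against the mean log2 CPM of 7 oligodendrocyte markers, 1 point per library, in MN-TRAP and in spinal cord, with genotypes by colour. All 9 hTDP-43A315T MN-TRAP libraries lie at the low end of the marker axis (7.04 to 7.50), the 2 highest Npas4 values belong to control libraries at 9.46 and 10.1, and no cord library is at 0.

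Lists of related genes, which were drawn up with earlier results of these data known, gave the wider pattern in the same contrast. Among 25 other immediate early transcription factors and regulators, 5 were called higher and 7 lower in MN-TRAP in hTDP-43A315T mice, 5 and 7 in hTDP-43WT mice and 5 and 5 in Chat bacTRAP mice. As shares of the list, 20% were higher in each genotype, and 28%, 28% and 20% were lower, beside 13.3%, 9.80% and 9.25% higher and 24.1%, 19.8% and 22.8% lower over all genes. Jun, the AP-1 partner of Fos, averaged 3868 ± 771 normalized counts in hTDP-43A315T MN-TRAP and 1615 ± 221 in hTDP-43A315T cord (SD, n = 9 each), with log2 changes of 1.39, 1.23 and 1.07 in hTDP-43A315T, hTDP-43WT and Chat bacTRAP mice (edgeR adjusted p at most 6.12e-09). Crem, which includes a repressor of cAMP-driven transcription among its products, was higher by 1.74, 1.503 and 1.49 on the log2 scale in the same order. Ier3 (1.79, 1.75 and 1.40) and Maff (1.57, 1.55 and 1.46) were also higher, and Cebpb was the fifth. The genes called lower in all 3 genotypes were Egr2, Egr3, Egr4, Klf4 and Zfp36, named after their values were seen. Egr3, of the same family as Egr1, changed by -5.99, -4.47 and -6.76, and Zfp36 by -2.05, -1.96 and -1.39. Of 22 activity-induced effector genes, none was called higher in any genotype, while 6, 8 and 5 were called lower, which is 27.3%, 36.4% and 22.7% of the list beside the same shares of all genes. Nptx2, a secreted pentraxin that gathers AMPA receptors, was lower by -1.87, -1.77 and -1.92, and the growth-promoting surface protein Nrn1 by -1.54, -1.21 and -0.94, the last of these under 2-fold.

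Of 21 upstream regulators, 1 was called higher in each genotype, which was Crem again, and 4, 3 and 2 (19%, 14.3% and 9.52%) were called lower. Camk2a, a calcium-dependent kinase abundant in forebrain neurons, was lower by -2.12, -1.71 and -1.93, and Rps6ka2, a kinase of the ERK pathway, by -1.43, -1.03 and -1.14. Among 7 heat shock genes, which answer to protein stress rather than synaptic input, Hspb1 was higher by 3.26, 3.42 and 3.34 on the log2 scale. Hsp90aa1 was higher by 1.12, 1.06 and 0.96 in the same order, the last of these just under 2-fold (adjusted p = 3.3e-06). The median log2 change of the lists lay between -0.27 and -0.10 for the transcription factors, -0.51 and -0.24 for the effectors and -0.40 and -0.30 for the upstream regulators, beside -0.21 to -0.10 for all genes.

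Whether the level of the immediate early genes in MN-TRAP RNA differed with mutant TDP-43 was asked by comparing genotypes at each age. Of 54 combinations of gene and comparison, 3 were called, and all 3 were Npas4. By unadjusted p, 13 of the 54 (24.1%) were under 0.05, where over all genes the share averaged 21.5% in these 6 comparisons. Npas4 in hTDP-43A315T mice had a log2 change of -6.37 over hTDP-43WT mice at 9 weeks (SE 1.08, adjusted p = 0.000423; 2.14% of all genes were called) and -5.83 over Chat bacTRAP mice at 14 weeks (SE 1.33, adjusted p = 0.00333; 10.4% called). Its change in hTDP-43WT over Chat bacTRAP mice at 14 weeks was -3.03 (SE 0.95, adjusted p = 0.0185; 13.2% called). Each of these calls rested on 1 library, and none was made in a fit on the MN-TRAP libraries alone. At 9 weeks the hTDP-43A315T libraries had 0, 8, 0, 0 and 0 Npas4 counts, and the hTDP-43WT libraries had 0, 251 and 1. At 14 weeks the hTDP-43A315T libraries had 1, 0, 1 and 0 counts, the hTDP-43WT libraries 5, 4, 0, 9 and 4, and the Chat bacTRAP libraries 117, 0, 0 and 1. Without hTDP-43WT replicate 2 at 9 weeks the first change was -0.08 (adjusted p = 1), and without Chat bacTRAP replicate 1 at 14 weeks the others were -0.78 (adjusted p = 0.894) and 1.99 (adjusted p = 0.446). None of the 3 was called when the 5 libraries with a high oligodendrocyte level were left out. Of these 5, hTDP-43WT replicate 2 at 9 weeks and Chat bacTRAP replicate 1 at 14 weeks had 346 and 128 normalized Npas4 counts. Both values lay above the highest cord library (90.4), and the others of the 5 lay below it. Markers of other neurons (6 genes) were also uneven. Their highest mean log2 CPM was 6.823 in hTDP-43WT MN-TRAP at 14 weeks and 5.944 at 9 weeks. In Chat bacTRAP MN-TRAP it was 6.709 at 14 weeks and 6.697 at 9 weeks. The hTDP-43A315T MN-TRAP libraries had 4.631 to 5.193 at 9 weeks and 5.156 to 5.276 at 14 weeks, and cord had 7.11 to 7.61. The part of RNA from other cells, other neurons among them, in these Npas4 values was not tested beyond leaving the libraries out.

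More members were called without other libraries that stand apart. Without the 3 control libraries with Lamr1-ps1 reads 9 combinations were called, the 3 of Npas4 among them. In hTDP-43A315T over hTDP-43WT mice Egr1 was then called lower at 9 weeks (-1.15, adjusted p = 0.0213; 15.1% of all genes were called). At 14 weeks Fosb was called higher (1.25, adjusted p = 0.0220) and Arc lower, where 10.3% of all genes were called. In hTDP-43WT over Chat bacTRAP mice the added calls were Npas4 (4.53, adjusted p = 0.00430) and Ier2 (1.59, adjusted p = 0.0370) at 9 weeks and Fosb (-1.07, adjusted p = 0.0472) at 14 weeks, with 8.99% and 14.4% of all genes called. Without the libraries under 5 M counts 8 were called, again with the 3 of Npas4. The others were Egr1 in hTDP-43A315T over Chat bacTRAP mice at 9 weeks (-1.004, adjusted p = 0.0412; 1.49% called), Npas4 (4.54, adjusted p = 0.0338) and Ier2 (1.84, adjusted p = 0.0296) in hTDP-43WT over Chat bacTRAP mice at 9 weeks (0.736% called), and Fosb at 14 weeks in both human TDP-43 genotypes over Chat bacTRAP mice, as given below. The Egr1, Npas4 and Ier2 calls at 9 weeks use hTDP-43WT replicate 2 or Chat bacTRAP replicate 2, which have a high oligodendrocyte level. Without the 5 libraries of that kind, and with the Lamr1-ps1 and shallow libraries kept, none of the 54 was called. That fit therefore does not show what becomes of the added calls. Removing both kinds together leaves 1 library in a group, as given in the section on processing.

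The MN-TRAP over cord change of Npas4 also differed between hTDP-43A315T and hTDP-43WT mice, by -4.78 on the log2 scale (SE 1.04, adjusted p = 0.0162; 0.626% of all genes were called). Between hTDP-43A315T and Chat bacTRAP mice it differed by -3.71 (SE 1.03, adjusted p = 0.0673; 0.664% called), and 0.403% of genes were called between hTDP-43WT and Chat bacTRAP mice. Without hTDP-43WT replicate 2 at 9 weeks the first of these differences was -1.64 (adjusted p = 0.951). The difference from Chat bacTRAP mice passed without the Lamr1-ps1 libraries (-3.96, adjusted p = 0.00924) and without those under 5 M counts (-4.11, adjusted p = 0.00830). No other member passed in the 27 differences between genotypes. Egr1, at -0.74 (SE 0.28, adjusted p = 0.178) for hTDP-43A315T against Chat bacTRAP mice, was the next nearest.

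Egr1 and Arc were lower in hTDP-43A315T MN-TRAP at 14 weeks by under 2-fold. Egr1 had 569, 395, 490 and 366 normalized counts in hTDP-43A315T libraries, 516, 1116, 345, 586 and 513 in hTDP-43WT libraries and 837, 1603, 583 and 710 in Chat bacTRAP libraries. Its log2 change was -0.88 ± 0.31 over Chat bacTRAP mice (adjusted p = 0.0447) and -0.44 over hTDP-43WT mice, and all 4 hTDP-43A315T values lay under the Chat bacTRAP values, although the groups overlapped after TMM scaling. By adjusted p alone, which Egr1 and Arc passed here with Npas4, 13.9% of all genes passed in this comparison. Leaving out 1 library at a time moved the Egr1 change between -1.05 and -0.56, and 5 of 8 such fits had an adjusted p over 0.05, the highest (0.223) without Chat bacTRAP replicate 2, which held under 5 M counts.

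Arc had 131, 213, 192 and 202 normalized counts in hTDP-43A315T libraries at 14 weeks, 233, 250, 806, 247 and 170 in hTDP-43WT libraries and 306, 559, 369 and 256 in Chat bacTRAP libraries. The log2 change was -0.87 ± 0.31 over Chat bacTRAP mice (adjusted p = 0.0488) and -0.86 ± 0.29 over hTDP-43WT mice (adjusted p = 0.0532). The hTDP-43A315T and Chat bacTRAP values did not overlap, as was so for 6.59% of all genes in this comparison, and the change over Chat bacTRAP mice was -0.99 to -0.69 when 1 library was left out, with an adjusted p over 0.05 in 7 of 8 fits. Against hTDP-43WT mice the change was -1.03 (adjusted p = 0.0143) without the 3 control libraries with Lamr1-ps1 reads. It was -0.31 (adjusted p = 0.513) without hTDP-43WT replicate 3, the library at 806, whose oligodendrocyte level was 9.68 where the hTDP-43A315T libraries had 7.36 to 7.50 at that age. Without the 5 libraries with a high oligodendrocyte level it was -0.27 (adjusted p = 0.680) over hTDP-43WT mice and -0.93 (adjusted p = 0.0168) over Chat bacTRAP mice. At 9 weeks Arc showed no such gap, with 179, 256, 475, 257 and 241 in hTDP-43A315T libraries, 258, 364 and 247 in hTDP-43WT libraries and 296, 375, 217 and 251 in Chat bacTRAP libraries. The test of that difference between ages, hTDP-43A315T against Chat bacTRAP mice, gave -0.86 (SE 0.42, adjusted p = 0.319; 1.71% of all genes were called). None of the 36 such differences between genotypes in the age change of a member was called with all libraries. Fosb passed against Chat bacTRAP mice without the libraries under 5 M counts (2.23, adjusted p = 0.00226), and Ier2 passed against hTDP-43WT mice without those with Lamr1-ps1 reads (1.72, adjusted p = 0.0482). Over all genes 0.143% were called for hTDP-43A315T against hTDP-43WT MN-TRAP and 0% in either cord comparison.

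Egr1 at 9 weeks ran in the same direction without passing the test. It had 300, 411, 249, 279 and 390 normalized counts in hTDP-43A315T MN-TRAP, 451, 908 and 367 in hTDP-43WT and 314.5, 1246, 241 and 386 in Chat bacTRAP. The log2 change was -0.83 over hTDP-43WT (adjusted p = 0.174) and -0.78 over Chat bacTRAP (adjusted p = 0.220), and the libraries at 908 and 1246 are among those with a high oligodendrocyte level. Without the library at 1246 the change over Chat bacTRAP was 0.02. Within groups, the MN-TRAP level of Egr1 followed the oligodendrocyte level over the 21 libraries of at least 5 M counts (r = 0.62, rho = 0.61), as did Npas4 (r = 0.59, rho = 0.62) and, less closely, Arc (r = 0.41, rho = 0.41). Dusp1 (r = -0.68, rho = -0.61) and Junb (r = -0.48, rho = -0.42) ran against it, and Fos had r = 0.09 and rho = 0.20. These correlations describe libraries that share a purification.

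Dusp1 was the remaining member with an adjusted p under 0.05 in a genotype comparison of MN-TRAP. At 14 weeks it had 929, 684, 906, 769 and 1101 normalized counts in hTDP-43WT MN-TRAP and 662, 2514, 1339 and 1170 in Chat bacTRAP MN-TRAP, overlapping, with a log2 change of -0.52 ± 0.19 (adjusted p = 0.0433; 21.5% of all genes passed by adjusted p alone). The value of 2514 is from a library under 5 M counts, and without it the change was -0.15. Fosb depended on the same shallow libraries. At 14 weeks it had 218, 131, 147 and 157 normalized counts in hTDP-43A315T libraries and 48.3, 449, 46.5 and 175 in Chat bacTRAP libraries, of which those at 449 and 175 are shallow. Its log2 change was 0.16 with all libraries and 1.87 (adjusted p = 0.000673) without the libraries under 5 M counts, which leaves 2 Chat bacTRAP libraries. The Fosb change of hTDP-43WT over Chat bacTRAP mice was -0.71 with all libraries and 1.00 without the shallow ones. Fos, Junb, Nr4a1 and Ier2 passed no genotype comparison in MN-TRAP with all libraries. For Fos the 6 log2 changes lay between -0.28 and 0.40, and the largest, hTDP-43A315T over hTDP-43WT at 9 weeks, had an adjusted p of 0.363.

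In the comparisons of MN-TRAP that gave no member call, 0.541% of all genes were called for hTDP-43A315T over Chat bacTRAP mice and 0.223% for hTDP-43WT over Chat bacTRAP mice at 9 weeks, and 5.36% for hTDP-43A315T over hTDP-43WT mice at 14 weeks. The related lists gave few calls as well. None of the 150 combinations of the other transcription factors was called. Of 132 effector combinations 6 were called, all at 14 weeks, where 5.36% to 13.2% of all genes were called. Dusp6, an ERK phosphatase, changed by -1.50 in hTDP-43A315T over hTDP-43WT mice and 1.67 in hTDP-43WT over Chat bacTRAP mice. Its hTDP-43WT level was 765 ± 773 normalized counts (SD, both ages), and no single library was left out for it. Ptgs2 changed most, by 7.88 in hTDP-43A315T and 6.89 in hTDP-43WT over Chat bacTRAP mice. It had few reads, with genotype means of 9.94, 6.19 and 2.62 normalized counts in MN-TRAP. Nrn1 changed by -1.06 in hTDP-43A315T over hTDP-43WT mice at 14 weeks (adjusted p = 0.00622). Of 126 upstream regulator combinations 2 were called, both for Rps6ka5, a kinase that phosphorylates CREB, at 1.06 in hTDP-43A315T and 1.21 in hTDP-43WT over Chat bacTRAP mice at 14 weeks.

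**Figure D4:**
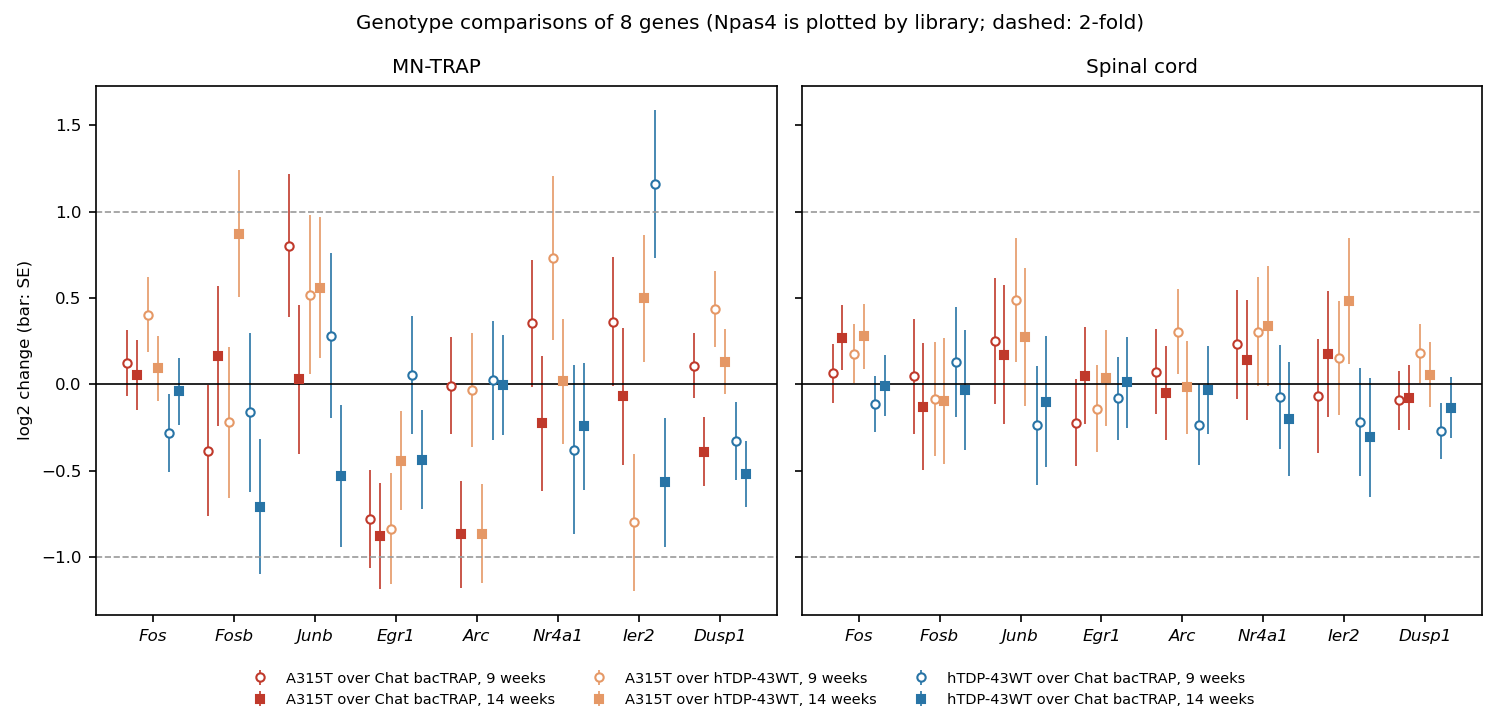
Log2 change between genotypes (point, edgeR estimate; bar, SE; open circles, 9 weeks; filled squares, 14 weeks; dashed lines, 2-fold) for 8 genes in MN-TRAP and in spinal cord. In MN-TRAP the estimates run from -0.88 to 1.16, and in cord from -0.31 to 0.49, with Egr1 and Arc lowest in hTDP-43A315T MN-TRAP.

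In whole cord no member passed the test between genotypes. None of 54 combinations was called, none had an unadjusted p below 0.05, and DESeq2 and limma-voom also called 0. Fits on the cord libraries alone, with both ages or with each age, called 0 as well. The smallest adjusted p was 1.0. Over all genes an unadjusted p below 0.05 held for 2.43% on average, and for 0.196% to 4.63% in single comparisons. The edgeR test pools the spread of both fractions, which over all genes was wider in MN-TRAP (median SD 0.77) than in cord (0.30). The lack of a call in cord thus does not show that the genotypes are alike. Calls were rare over the genome here, at 0.0372%, 0.0212% and 0% of all genes at 9 weeks and 0.0212%, 0.0265% and 0.00531% at 14 weeks for hTDP-43A315T over Chat bacTRAP, hTDP-43A315T over hTDP-43WT and hTDP-43WT over Chat bacTRAP mice. The cord estimates also bound the size of a difference. With 95% intervals (the estimate ± 1.96 SE), the 6 comparisons of Fos stayed within -0.43 and 0.65 on the log2 scale, those of Dusp1 within -0.59 and 0.51, of Egr1 within -0.72 and 0.60 and of Arc within -0.69 and 0.79. For the members other than Npas4 the widest bounds were -0.98 and 1.20, and for Npas4 they were -2.003 and 1.86.

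Single cord groups still differed in range. At 9 weeks Nr4a1 had 349, 354, 359, 352 and 382 normalized counts in hTDP-43A315T cord, and 249, 285 and 337 as lowest, median and highest in hTDP-43WT cord, with no overlap, as was so for 4.17% of all genes in that comparison. Its adjusted p was 1.0, and it was not called. Fos had 720, 832, 732 and 805 in hTDP-43A315T cord at 14 weeks and 580, 665, 598, 721 and 596 in hTDP-43WT cord, 1 value of each group overlapping, a log2 change of 0.28 (SE 0.19) that did not pass.

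Between the ages, 2 of 27 combinations in MN-TRAP were called, both in hTDP-43WT mice and both lower at 14 weeks, where 7.03% of all genes were called. Npas4 changed by -4.90 (adjusted p = 0.00273) and Ier2 by -1.70 (adjusted p = 0.00670). Neither was called in a fit on the MN-TRAP libraries alone. Ier2 had 287, 188, 127, 169 and 227 normalized counts at 14 weeks and 64.5, 1321 and 342 at 9 weeks, so that the groups overlapped and 1 library at 9 weeks stood far above the rest. Without that library, hTDP-43WT replicate 2 at 9 weeks, the changes were 1.38 for Npas4 (adjusted p = 0.848) and -0.40 for Ier2 (adjusted p = 0.774). In hTDP-43A315T and Chat bacTRAP mice no member was called between the ages, where 0.0106% and 5.15% of all genes were. By unadjusted p, 5 of the 27 (18.5%) were under 0.05, where over all genes the share averaged 19.8% in these 3 comparisons. Without the libraries under 5 M counts 5 of the 27 were called, the added ones being Junb in hTDP-43WT mice (-1.13, adjusted p = 0.0489; 12.1% of all genes were called) and Fosb (-1.41, adjusted p = 0.0129) and Npas4 (3.05, adjusted p = 0.0427) in Chat bacTRAP mice (14.4% called).

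In Chat bacTRAP mice Egr1 had 837, 1603, 583 and 710 normalized counts in MN-TRAP at 14 weeks and 314.5, 1246, 241 and 386 at 9 weeks, and a log2 change of 0.54 (adjusted p = 0.291). One library per age belonged to those with a high oligodendrocyte level, those at 837 and 1246, and without the 5 such libraries the change was 1.33 (adjusted p = 0.000412). That removal was chosen after seeing the data. It kept the libraries under 5 M counts, which were those at 1603 and 710 at 14 weeks and at 241 at 9 weeks. In hTDP-43A315T mice Egr1 had 569, 395, 490 and 366 at 14 weeks and 300, 411, 249, 279 and 390 at 9 weeks, overlapping, and was not called. The age change in Arc was -0.67 in hTDP-43A315T MN-TRAP (adjusted p = 0.603).

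In cord no member was called between the ages, with 0% of all genes called in each genotype. None had an unadjusted p below 0.05, where over all genes the share averaged 0.917%. Npas4 in hTDP-43A315T cord had 56.2, 26.6, 31.5 and 43.7 normalized counts at 14 weeks and 59.7, 71.4, 57.6, 60.3 and 60.1 at 9 weeks. These groups did not overlap, as was so for 1.94% of all genes, but the change did not pass the test. For Fos the 3 age changes in cord had intervals within -0.53 and 0.38 on the log2 scale, and for Dusp1 within -0.55 and 0.28.

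Across all 12 groups, the order of the means followed the fraction for 4 of the 9 genes. For Egr1, Arc and Nr4a1 the 6 cord groups held the first 6 places, and for Dusp1 the 6 MN-TRAP groups did. For Fos, Fosb, Junb, Npas4 and Ier2 the fractions were interleaved. Egr1 group means lay between 326 and 933 normalized counts in MN-TRAP and between 1354 and 1590 in cord. The highest and the lowest Fos mean in MN-TRAP were 992 in hTDP-43A315T and 712 in hTDP-43WT libraries, both at 9 weeks, and the cord means of Fos lay between 632 and 773. The hTDP-43WT mean of Npas4 at 9 weeks in MN-TRAP, 116 with an SD of 199, lay above every cord mean (39.5 to 61.8). Of the 11 gaps between neighbouring means of each gene, the only ones larger than the 2 neighbours' SDs added together were those between the fractions for Arc and Dusp1, so neighbours elsewhere in the order did not differ beyond their spread.

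Members were also compared across libraries within groups, after subtracting group means from log2 CPM, over 36 pairs in each fraction. In the 31 cord libraries 12 pairs passed (permutation adjusted p below 0.05 over 72 relations). They were all 10 pairs among Junb, Arc, Nr4a1, Ier2 and Dusp1, with r from 0.56 to 0.83, Fosb with Junb at 0.54, and Fos with Egr1 at 0.67. All 9 members have transcripts richer in GC than the median gene, from 51.9% in Fos to 62.6% in Junb against 49.8%. The slope of log2 CPM on transcript GC differed between cord libraries by -0.54 to 0.37 per 10 GC points, and the members followed it to different degrees, with r = 0.94 for Junb, 0.87 for Ier2, 0.85 for Arc, 0.76 for Nr4a1, 0.69 for Dusp1, 0.01 for Fos and -0.13 for Egr1. After the part that follows this slope was removed, the 10 pairs had r from -0.34 to 0.51 with a median of 0.16, while Fos with Egr1 stayed at 0.67. The slope was computed after the correlations had been seen.

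Fos with Egr1 in cord had r = 0.67 and rho = 0.67 (permutation test over libraries, adjusted p = 0.00638 and 0.00468 over 72 relations) and a positive r in 6 of 6 groups. Without the 2 libraries farthest from the median of Fos it was 0.60, and over the 16 relations with Fos alone its adjusted p was then 0.0614. In MN-TRAP the same pair had r = 0.14 over 21 libraries. There 1 of 36 pairs passed, Egr1 with Npas4, at r = 0.75 and rho = 0.76 (permutation adjusted p = 0.00688 and 0.0169). It was 0.67 over the 16 of these libraries without a high oligodendrocyte level, and both genes followed that level as given above. Npas4 had few counts in most of these libraries.

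**Figure D5:**
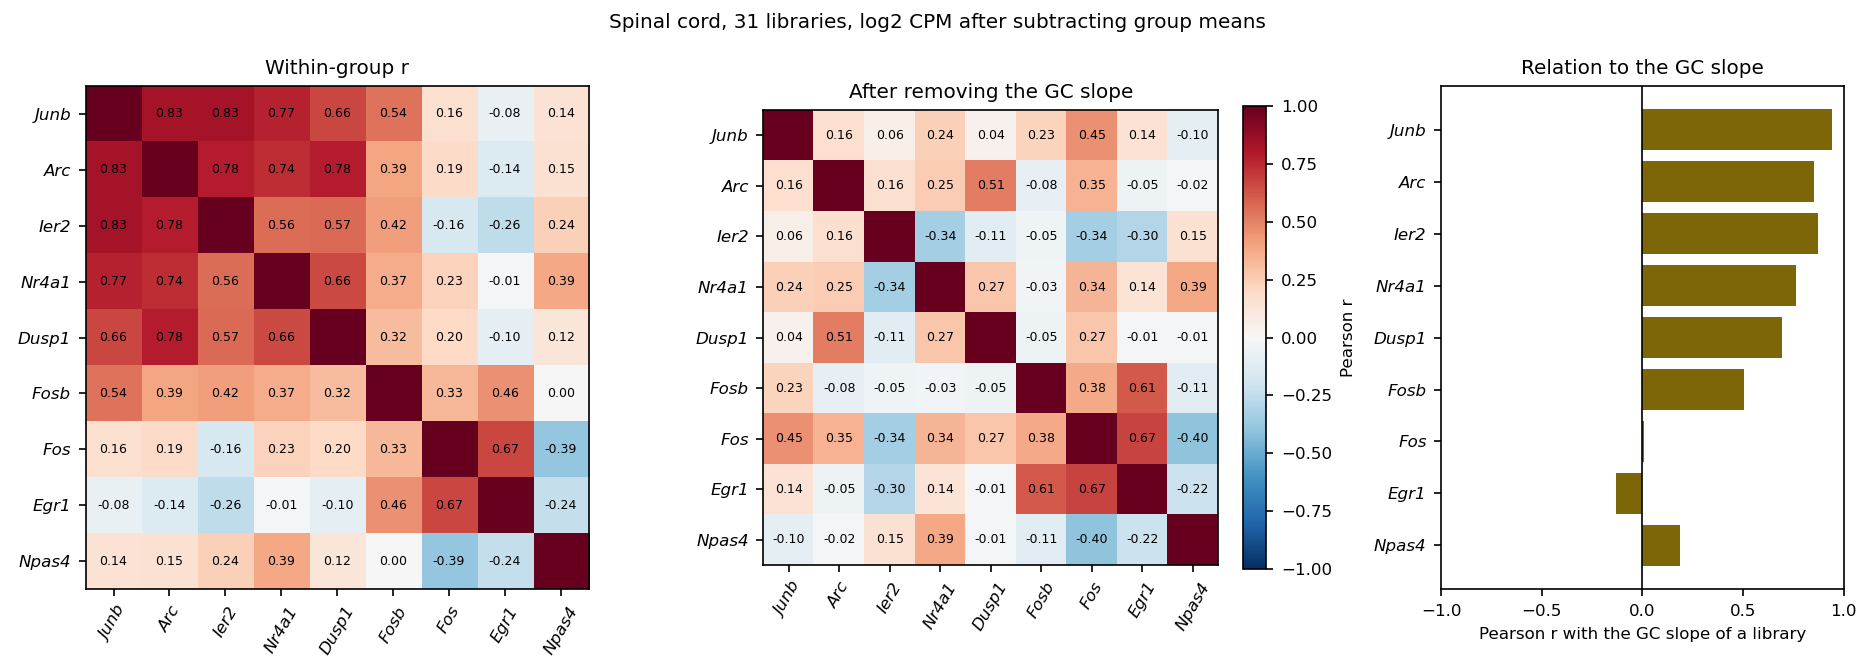
Pearson r between the 9 genes over 31 cord libraries after subtracting group means (left), the same after removing the part that follows each library's GC slope (middle), and r of each gene with that slope (right). The block of Junb, Arc, Ier2, Nr4a1 and Dusp1 has r of 0.56 to 0.83 on the left and -0.34 to 0.51 in the middle, while Fos with Egr1 is 0.67 in both.

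The genes whose within-group pattern was most like that of Fos were, in the 31 cord libraries, Gpatch1, Rab31, 1700086L19Rik, Zhx3, Lzic, Rassf2, Acad9, Atg14, Pdxdc1 and Rassf1, members left aside, with r from 0.71 down to 0.66. Egr1 ranked 8 of 14519 genes by the same measure, and Dusp4, an immediate early phosphatase gene, ranked 31 (r = 0.62). In the 25 MN-TRAP libraries Slc12a9, Dpf1, Scly, Rnf40, Sike1, Nemp2, Nova2, Mfsd10 and Ppp4r1 were among the 10 highest, with r from 0.86 to 0.82. There Zfp36, which encodes an mRNA decay factor, ranked 15 of 13669 (r = 0.81) and Junb ranked 99 (r = 0.76, permutation adjusted p = 0.123 over the 16 relations with Fos), while Egr1 had r = 0.05. These MN-TRAP ranks rest in part on the 4 shallow libraries, in one of which Junb was at 0. Over the 21 libraries of at least 5 M counts, 1 of the 10 genes (Dpf1, r = 0.76) stayed among the 10 highest, and the 10 had r from 0.47 to 0.76. Zfp36 then ranked 33 (r = 0.66), Junb 4081 (r = 0.22) and Egr1 5804 (r = 0.14). The 2 lists name the highest of many r values and carry no test, and Dusp4 and Zfp36 were picked out of the lists of related genes after their values were seen.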

How the data were processed

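RNA-seq of polyadenylated RNA was available for 56 libraries in 12 groups (genotype, age, fraction), 25 from MN-TRAP and 31 from spinal cord input. The labels call the tissue cervical spinal cord, while the study's methods describe the cord without that limit. The authors aligned reads to the mouse genome GRCm38 (mm10) with STAR and deposited raw counts per Ensembl gene from featureCounts, with replicates not pooled. The deposited normalized values are a signal that the authors made by dividing the raw counts of each library by 1 size factor (DESeq2), so they are scaled for depth and not for gene length. Both tables hold 43629 genes.

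Levels are given as deposited normalized counts. Tests used the raw counts in 1 edgeR 4.0.16 quasi-likelihood model of all 12 groups (TMM scaling, 18838 genes after filterByExpr, R 4.3.3), with Benjamini-Hochberg adjustment over all genes tested. Every adjusted p without another name is from this edgeR test, and a gene was called with an adjusted p below 0.05 and at least a 2-fold change. Comparisons across libraries used log2 CPM (prior count 0.5) minus the group mean, with 100000 permutations. Depth was 0.472 to 256 M counts (M, 1000000) and sets the counting error of rare transcripts such as Npas4.

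Alternatives were RLE scaling, no filter, a fit on the same fraction or the same fraction and age alone, the replicate number as a block, DESeq2 1.42.0, limma-voom (limma 3.58.1), no minimum fold, the authors' normalized counts for correlations, and leaving out single libraries, the libraries under 5 M counts or the control libraries with Lamr1-ps1 reads. Leaving out the libraries with a high oligodendrocyte level, alone or together with either other set, and adding a library's GC slope were chosen after seeing the data. The methods were tested on simulated data. The members, the gene lists and the tests were chosen with earlier results of these data known. Genes named in correlations are the 10 with the highest r (mean of at least 1 CPM), and up to 4 genes of each list were named by the smallest p in a comparison. Promoter sequences are from RefSeq (GRCm38.p6), and Arc, Ier2 and Egr1 were not printed. The study kept 10% of each lysate as the input, so MN-TRAP and cord libraries can share a mouse. Labels do not say which do, and the tests treated every library as independent. The edgeR model gives each gene 1 dispersion for all groups, so p-values and SEs measure a spread between libraries pooled over both fractions. Over all genes the median within-group SD of log2 CPM was 0.77 in MN-TRAP and 0.30 in cord.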

Additional observations from a re-analysis of the deposited data

Results flagged for a closer look

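Of 99 sets of 4 to 6 libraries (1 gene in 1 group), 10 held a library whose gap to its neighbour exceeded the 95% limit of Dixon's test, and chance gives about 1 in 20, or 4.95. The hTDP-43A315T MN-TRAP library replicate 3 at 9 weeks was the highest of its group for Junb (1314 normalized counts), Dusp1 (1434), Arc (475) and Nr4a1 (166). Its Fos value, 1261, was the highest of all 25 MN-TRAP libraries, its Egr1 value of 249 ranked 24, and it had the steepest GC slope of the MN-TRAP libraries (0.70 on the log2 scale per 10 GC points). Whether that slope accounts for these values was not tested. Arc was also high in hTDP-43WT MN-TRAP replicate 3 at 14 weeks (806 normalized counts), which had an oligodendrocyte marker level of 9.68.

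Egr1 stood out in Chat bacTRAP MN-TRAP replicate 2 at 9 weeks (1246 normalized counts), as did Npas4 in the same library (18.8). Npas4 stood out in Chat bacTRAP MN-TRAP replicate 1 at 14 weeks (128 normalized counts). Both libraries belong to the 5 with a high oligodendrocyte level. Npas4 further stood out in hTDP-43A315T MN-TRAP replicate 2 at 9 weeks (6.09 normalized counts, the others at 0), which rests on 8 counts, and in hTDP-43A315T cord replicate 2 at 9 weeks (71.4, the others at 57.6 to 60.3).

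The MN-TRAP over cord change of Npas4 differed between hTDP-43A315T and hTDP-43WT mice by -4.78 on the log2 scale (SE 1.04, edgeR adjusted p = 0.0162), and this difference was -1.64 (adjusted p = 0.951) without hTDP-43WT MN-TRAP replicate 2 at 9 weeks.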

How the results depend on the processing

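The count of member calls between MN-TRAP and cord, 14 of 27, was 12 to 20 under the alternatives and 12 to 14 when 1 library was left out, and the counts in cord for genotype and age were 0 throughout. The 3 genotype calls in MN-TRAP became 0 with the same fraction alone, 0 with the same fraction and age alone, 0 with limma-voom, 0 without the high-oligodendrocyte libraries, 5 with DESeq2, 6 with no minimum fold, 8 without libraries under 5 M counts and 9 without the 3 control libraries with Lamr1-ps1 reads, and lay between 2 and 6 with 1 library left out. The 2 age calls in MN-TRAP became 0 with the same fraction alone, 0 with limma-voom, 1 without the high-oligodendrocyte libraries, 1 with the GC slope and 5 without libraries under 5 M counts, and lay between 0 (without hTDP-43WT replicate 2 at 9 weeks) and 4 (without Chat bacTRAP replicate 2 at 9 weeks). The single difference of the MN-TRAP over cord change between genotypes became 0 with limma-voom, 0 without the high-oligodendrocyte libraries, 2 with DESeq2, 2 without the Lamr1-ps1 libraries and 2 without libraries under 5 M counts, and was 1 or 2 with 1 library left out. The 0 differences of the age change became 1 without the Lamr1-ps1 libraries and 1 without libraries under 5 M counts. Of the relations with Fos, the 1 that passed became 0 without the 2 libraries farthest from the median of Fos. Leaving out the high-oligodendrocyte libraries together with the Lamr1-ps1 libraries, or with the shallow ones, leaves 1 library in hTDP-43WT MN-TRAP at 9 weeks and, in the second case, 1 in Chat bacTRAP MN-TRAP at 14 weeks, and the lone library is assumed to vary like the other groups. The genotype calls were then 2 and 5, the age calls 1 and 2, the differences of the MN-TRAP over cord change 0 and 0, and the differences of the age change 1 and 2. The cause of these moves was not tested.

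Signs turned for Fosb in hTDP-43WT over Chat bacTRAP MN-TRAP at 14 weeks (1.00 without libraries under 5 M counts, adjusted p = 0.0398) and for Fosb at 14 over 9 weeks in Chat bacTRAP MN-TRAP (-1.41 without them, adjusted p = 0.0129). Signs also turned for Npas4 in hTDP-43WT over Chat bacTRAP MN-TRAP at 14 weeks (2.06 without the high-oligodendrocyte libraries, and -3.82 to 1.99 with 1 library left out) and for Npas4 at 14 over 9 weeks in hTDP-43WT MN-TRAP (1.40, and -5.69 to 1.38). With the first of the joint removals the sign also turned for Ier2 in MN-TRAP over cord in hTDP-43WT mice (-0.57), for Npas4 in hTDP-43A315T over hTDP-43WT mice at 9 weeks (4.26), in hTDP-43WT over Chat bacTRAP mice at 14 weeks (3.03), at 14 over 9 weeks in hTDP-43WT mice (6.68) and in the difference between hTDP-43A315T and hTDP-43WT mice (0.035), and for Ier2 at 14 over 9 weeks in hTDP-43WT mice (2.08), and none of these passed the test. The MN-TRAP over cord change of Nr4a1 in hTDP-43WT mice was then -1.21 (adjusted p = 0.0685). With the second it turned for Npas4 over Chat bacTRAP mice at 14 weeks in hTDP-43A315T (3.20) and hTDP-43WT mice (5.96) and at 14 over 9 weeks in hTDP-43WT mice (1.27), and for Fosb in hTDP-43WT over Chat bacTRAP mice at 14 weeks (1.41, adjusted p = 0.0155) and at 14 over 9 weeks in Chat bacTRAP mice (-1.47, adjusted p = 0.0177). Libraries with the same replicate number did not deviate together (10 of 25 pairs with r over 0.1, median -0.056). That comparison cannot show which libraries share a mouse, so the replicate block was not taken as a pairing. With the replicate block the counts were 14, 3 and 2 for the MN-TRAP over cord, genotype and age calls, and 0 for the difference between genotypes (Npas4 -4.55, adjusted p = 0.0536).

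Npas4 had no count in 12 of 25 MN-TRAP libraries, of which 3 held under 5 M counts and the other 9 held 13.5 to 43.8 M, while the shallowest cord library held 17.5 M and no cord library had fewer than 22 Npas4 counts. Small groups of 3 to 6 libraries, 4 shallow MN-TRAP libraries and uneven RNA of other cells limit the genotype and age comparisons in MN-TRAP. Intervals cover the spread between libraries, pooled over both fractions, and not what the purification adds.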

Other observations

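Few genes of the related lists changed with age or beyond the comparisons given above. In MN-TRAP of hTDP-43WT mice at 14 over 9 weeks, Plk2, a kinase that acts on synaptic scaffolds, changed by 1.25 on the log2 scale, Ccn1, a secreted matrix protein, by -2.07 and Elk1, an SRF partner, by 1.44, and no list gene was called between the ages in cord. Among genotypes at 14 weeks in MN-TRAP, Hspa1b, an inducible heat shock gene, changed by -1.48 and Inhba, an activin subunit, by -2.78 in hTDP-43WT over Chat bacTRAP mice. Dusp6, which was called in 2 comparisons, averaged 274 ± 47.7 normalized counts in hTDP-43A315T MN-TRAP (SD, n = 9), 765 ± 773 in hTDP-43WT (n = 8) and 333 ± 153 in Chat bacTRAP (n = 8).

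The library with most Npas4, hTDP-43WT MN-TRAP replicate 2 at 9 weeks, also ranked 1 of 25 for Ier2 and 4 for Egr1, but 21 for Fos and 23 for Nr4a1 and Dusp1. The shallow Chat bacTRAP library replicate 2 at 14 weeks (2.41 M counts) ranked 1 for Fosb, Egr1 and Dusp1, while Nr4a1 had no count in it.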
